A study of Mus musculus with 6 samples.

Results

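The amino acid transporter genes described here are the genes of 6 solute carrier families, Slc1, Slc3, Slc7, Slc36, Slc38 and Slc43, in primary mouse hepatocytes. Members were all gene symbols of the array's annotation that start with Slc1a, Slc3a, Slc7a, Slc36a, Slc38a or Slc43a, except Slc7a11. That gave 42 of 20416 genes on the array, read by 547 probe sets, and 35 of them were bright enough to be tested among 15312 genes. The rule used names and no measured value. It also took in Slc7a6os, the gene on the opposite strand to Slc7a6, and Slc43a3, a carrier of nucleobases, neither of which carries amino acids.

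The hepatocytes came from adult C57BL/6 mice. In the miR-143DOX group, 3 mice carried an inducible transgene for the microRNA miR-143 that doxycycline switches on, and the control group was 3 wildtype littermates. All 6 mice, controls included, drank doxycycline at 4 mg/ml with 10% sucrose for 8 days, so the groups share the drug and differ in the transgene. The labels do not name the promoter that drives the transgene or the cells in which it is active, and controls carried no inactive transgene. Livers were perfused with collagenase, the cells were frozen, and total RNA of each mouse was read on 1 Affymetrix array, with values given here on a log2 scale. Pairs of the 6 arrays had Pearson correlations between 0.936 and 0.954, and the medians of the deposited values lay within 0.0665 of each other. All 10 hepatocyte markers, albumin among them, lay at or above the 97.8th percentile of all genes. The median marker lay at percentile 73.2 of all genes for sinusoidal endothelium, 70.7 for Kupffer cells and 62.9 for stellate cells, over 10 genes each. No detection call was used, so the presence of RNA from these other liver cells was not tested.

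Amino acids cross membranes only on carriers, and the liver takes up much of what the portal blood brings, for protein synthesis, urea, glutamine and glucose. Slc38 proteins carry small neutral amino acids and glutamine with sodium. Slc7 proteins are light chains that mostly need a heavy chain of the Slc3 family to reach the surface, or cationic amino acid carriers that work alone. Slc1 proteins carry glutamate and aspartate or exchange small neutral amino acids. In the Slc36 family, Slc36a1 moves small amino acids with protons out of lysosomes. In the Slc43 family, Slc43a1 and Slc43a2 carry branched-chain and aromatic amino acids down their gradient. The comparison asks which of these transcripts differ in hepatocytes when miR-143 is induced.

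Slc43a1, the large neutral amino acid carrier LAT3, had the largest difference and the smallest unadjusted p of the tested members. It was 1.48-fold higher in control than in miR-143DOX hepatocytes, and it was the single member of 35 at an unadjusted p under 0.05 in limma's moderated test, which is 2.86% of the members against 3.06% of all genes tested. At a false discovery rate (FDR) of 5%, adjusted over the whole array, no member and no other gene passed (0%). The carriers with the brightest signals in these hepatocytes, Slc38a4, Slc38a3, Slc7a2 and Slc38a2, had differences between -0.30 and -0.14 on the log2 scale, with intervals that included 0. Differences are given on the log2 scale as miR-143DOX less control. Of the 35 tested members 16 lay above 0 and 19 below; their median was -0.033 beside 0.0083 over all genes tested, of which 52.4% lay above 0.

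**Figure D1:**
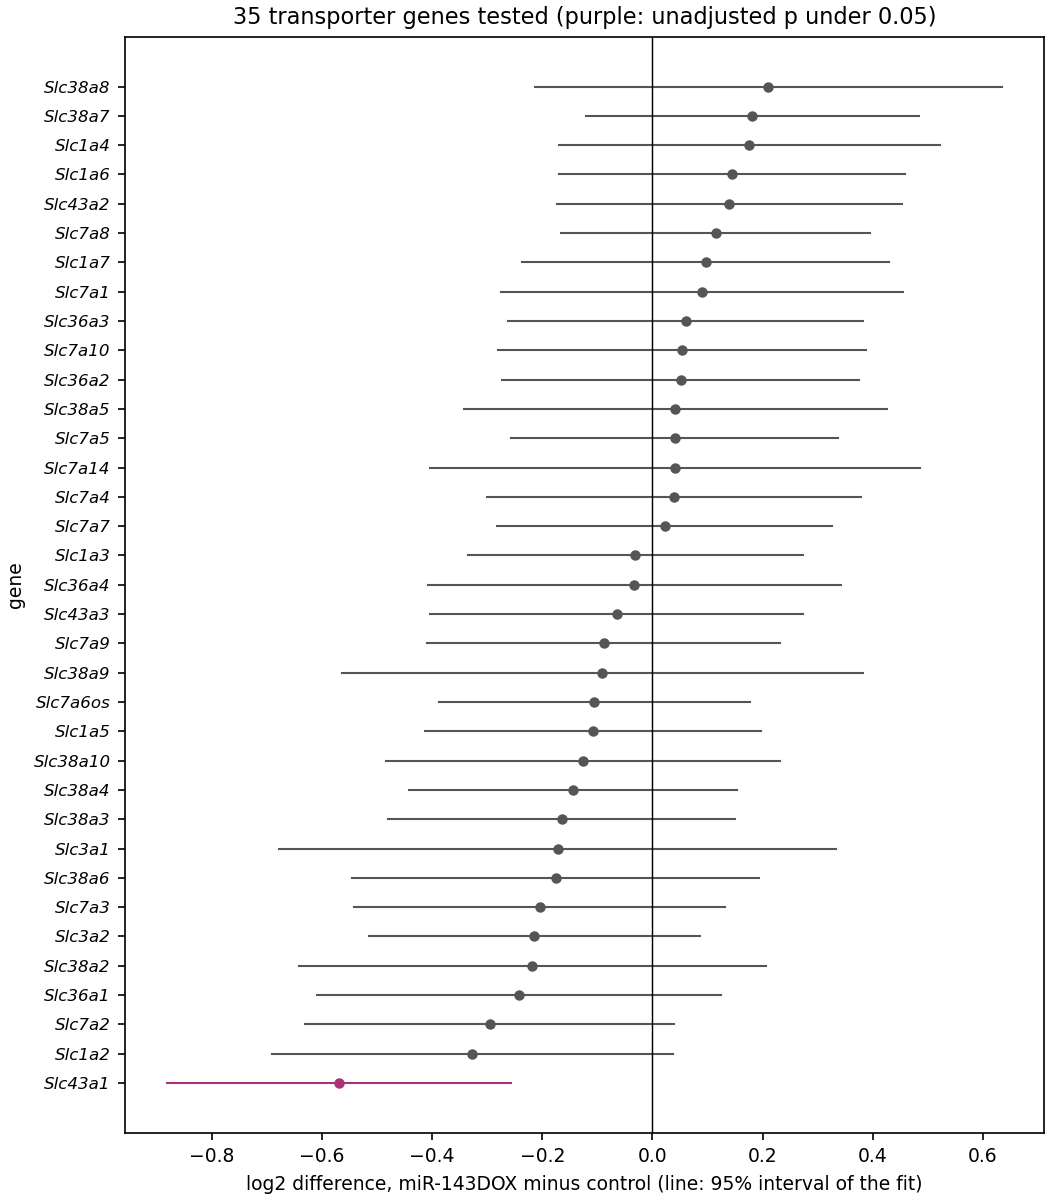
Log2 difference (x axis, miR-143DOX minus control) of each of the 35 transporter genes tested (y axis), sorted by the difference. Points are fitted differences and lines their 95% intervals. The interval of Slc43a1, from -0.88 to -0.26, is the one that lies wholly below 0, and the other 34 include 0.

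The promoters of Slc43a1 and Slc1a2, the members furthest below 0, are shown as far as RefSeq's promoter entries for GRCm38.p6 hold them, with 1 start for each gene. Each window is the 250 bases before that start, and both lie inside the gene's annotated span, so they precede an internal start and not the most upstream one. They are read 5′ to 3′ on the gene's strand, at chr2:84840073-84840322 (plus strand) for Slc43a1 and chr2:102706188-102706437 (plus strand) for Slc1a2. Capitals mark matches on either strand to 4 motifs, none of which overlap here. The amino acid response element bound by ATF4 was searched as TGATGNAA. The E-box was searched as CACGTG. The GC box, a site of Sp1, was searched as GGGCGG. The box read by the TATA-binding protein was searched as TATAAA.

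Slc43a1: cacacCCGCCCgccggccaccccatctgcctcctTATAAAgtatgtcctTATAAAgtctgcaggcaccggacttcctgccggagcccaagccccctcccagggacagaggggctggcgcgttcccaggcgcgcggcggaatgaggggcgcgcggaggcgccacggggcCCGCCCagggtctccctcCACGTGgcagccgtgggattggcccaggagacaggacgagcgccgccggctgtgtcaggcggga
Slc1a2: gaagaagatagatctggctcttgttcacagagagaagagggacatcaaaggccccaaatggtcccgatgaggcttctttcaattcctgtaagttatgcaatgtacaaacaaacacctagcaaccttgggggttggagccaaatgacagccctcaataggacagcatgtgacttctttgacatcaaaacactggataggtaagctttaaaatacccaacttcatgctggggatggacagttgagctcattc

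The Slc43a1 window held 1 E-box, 64 bases before the start. It also held 2 GC boxes, 245 and 82 bases before the start, and 2 TATAAA matches, 216 and 201 bases before it. Of the bases in this window 70.8% were G or C. The Slc1a2 window held none of the 4 motifs and was 44.8% G or C. RefSeq promoters were found for 31 of the 42 members. The E-box stood in 7 of their 42 windows (some genes have several starts) and in 6.02% of all 32851 windows, the GC box in 26 of 42 and in 32.7%, and TATAAA in 6 of 42 and in 12.4%. The ATF4 element stood in 2 of 42 windows, both of Slc7a7, and in 3.45% of all windows. These matches describe letters in the windows and were not tied to any measurement of binding.

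Within the Slc43 family, which has 3 genes here, Slc43a1 measured 7.54, 7.52 and 7.22 in the 3 control arrays (log2 level). In the miR-143DOX arrays it measured 6.87, 6.74 and 6.97. Every miR-143DOX array was below every control array, and control replicate 3 was the lowest control. It was the 1 tested member whose groups did not overlap, with 0 on the higher side, where 7.13% of all genes tested had groups apart, 3.73% lower and 3.4% higher. The mean was 6.86 ± 0.12 in miR-143DOX against 7.43 ± 0.18 in control (SD, n = 3 each). The fitted difference was -0.57 (standard error 0.14, limma unadjusted p = 0.00192), and it did not pass over all genes (adjusted p = 0.9997). With each array left out in turn it lay between -0.67 and -0.51, and the unadjusted p was at most 0.0108.

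Slc43a1 was read by 16 probe sets, all bright enough to be tested, and 15 of them lay below 0. At an unadjusted p under 0.05, 8 of the 16 were lower and 0 higher, where 4.17% of all tested probe sets passed, 2.15% lower and 2.02% higher. These probe sets share a transcript, and their mean is the gene value by which Slc43a1 was picked. Their count is thus no separate support for its difference. Probe set 10473370 measured 6.50, 6.57 and 5.94 in control against 5.42, 5.54 and 4.88 in miR-143DOX (log2 level). Its difference was -1.06, with no overlap of the groups, and in limma its unadjusted p of 0.00584 ranked 1 among the members' probe sets. The difference was widest for probe set 10473371, at -1.33, where miR-143DOX replicate 2 was lowest at 5.34. The gene's brightest probe set differed by -0.65. Probe set 10473376, among the brightest of the gene, differed by -0.16, and 10473369 lay above 0 at 0.41. The size of the difference thus varied between probe sets, and its sign was negative in all but 10473369.

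**Figure D2:**
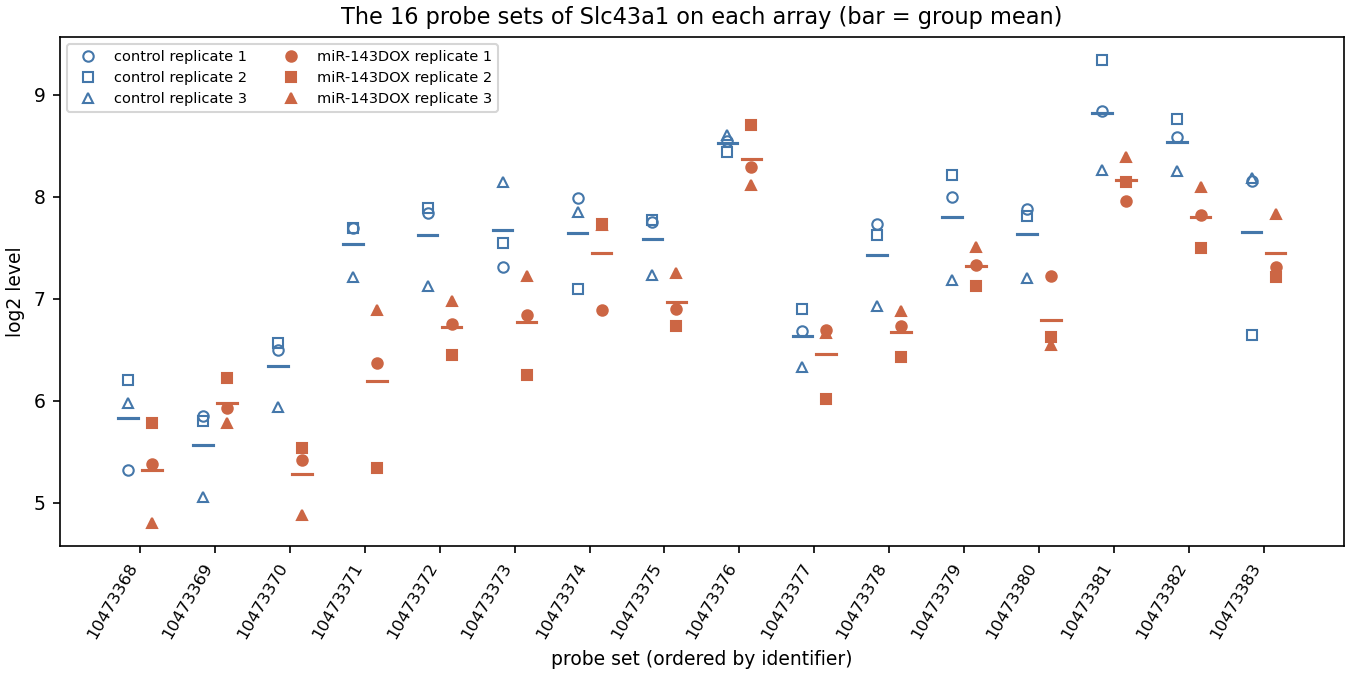
Log2 level (y axis) of the 16 Slc43a1 probe sets (x axis) on each array, with blue open symbols for control, orange filled symbols for miR-143DOX, symbol shape for the replicate number and bars for group means. The mean of miR-143DOX is below that of control in 15 of 16 probe sets, the exception being 10473369.

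By the mean over probe sets, the other Slc43 genes had overlapping groups and intervals that included 0. Slc43a2, the related carrier LAT4, measured 6.04, 5.98 and 6.08 in control and 6.35, 6.23 and 5.94 in miR-143DOX (log2 level), so the groups overlapped. Its difference was 0.14 (95% interval -0.17 to 0.45), and -0.26 with its brightest probe set. Slc43a3 differed by -0.06 (-0.40 to 0.27), at 8.43, 8.37 and 8.25 in control and 8.59, 8.09 and 8.18 in miR-143DOX. Whether Slc43a1 differed from its relatives in response was not tested.

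Among the 11 Slc38 genes, 9 were tested, and 3 lay above 0 and 6 below, with a median of -0.13. Slc38a3 (SNAT3), the system N carrier of glutamine, histidine and asparagine, measured 12.28, 12.09 and 12.13 in control and 11.79, 12.02 and 12.19 in miR-143DOX (log2 level). Its difference was -0.16 (95% interval -0.48 to 0.15). The groups overlapped, since miR-143DOX replicate 3 lay between the control arrays. Of its 18 probe sets 17 lay below 0, from -0.47 to -0.03, and the brightest, at a mean of 13.78, lay at 0.04.

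Slc38a4 (SNAT4), a neutral and cationic amino acid carrier known from the liver, measured 12.36, 12.25 and 12.32 in control and 12.08, 12.07 and 12.36 in miR-143DOX (log2 level). Here miR-143DOX replicates 1 and 2 lay below all controls, and replicate 3 lay level with the highest control. The difference was -0.14 (-0.44 to 0.15), and 0.02 with the brightest probe set. Slc38a2 (SNAT2), the carrier that cells raise when amino acids run short, measured 11.16, 10.72 and 11.03 in control and 10.52, 10.54 and 11.19 in miR-143DOX. It showed the same order, with replicate 3 of miR-143DOX above every control, and a difference of -0.22 (-0.64 to 0.21). Without that array the difference was -0.44 (limma unadjusted p = 0.0224), and without miR-143DOX replicate 1 it was -0.10.

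Slc38a9, a lysosomal carrier that reports arginine to the growth kinase mTORC1, had the widest spread within miR-143DOX of any tested member, at 6.76, 6.94 and 7.70 against 7.19, 7.08 and 7.42 in control (log2 level). Its difference was -0.09 (-0.56 to 0.38), and -0.37 without miR-143DOX replicate 3 (unadjusted p = 0.0372). Slc38a7, a lysosomal glutamine and asparagine exporter, lay the other way, at 7.66, 7.35 and 7.47 in control and 7.56, 7.77 and 7.69 in miR-143DOX. Its difference was 0.18 (-0.12 to 0.48), and the groups overlapped through control replicate 1. Slc38a10 differed by -0.13 (-0.48 to 0.23). Slc38a8 had the highest difference of the tested members, 0.21 (-0.21 to 0.63), at 5.56, 5.91 and 5.76 in control and 5.98, 6.35 and 5.53 in miR-143DOX, where replicate 3 was the lowest array. In Slc38a6 the probe sets disagreed, with 12 of 17 tested below 0 and a range from -1.30 to 0.90, so its difference of -0.18 averages unlike values. Slc38a5, a glutamine carrier, differed by 0.04, while its brightest probe set was lower in every miR-143DOX array (9.32, 8.92 and 9.28 in control, 8.37, 8.56 and 8.57 in miR-143DOX), at a difference of -0.67.

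**Figure D3:**
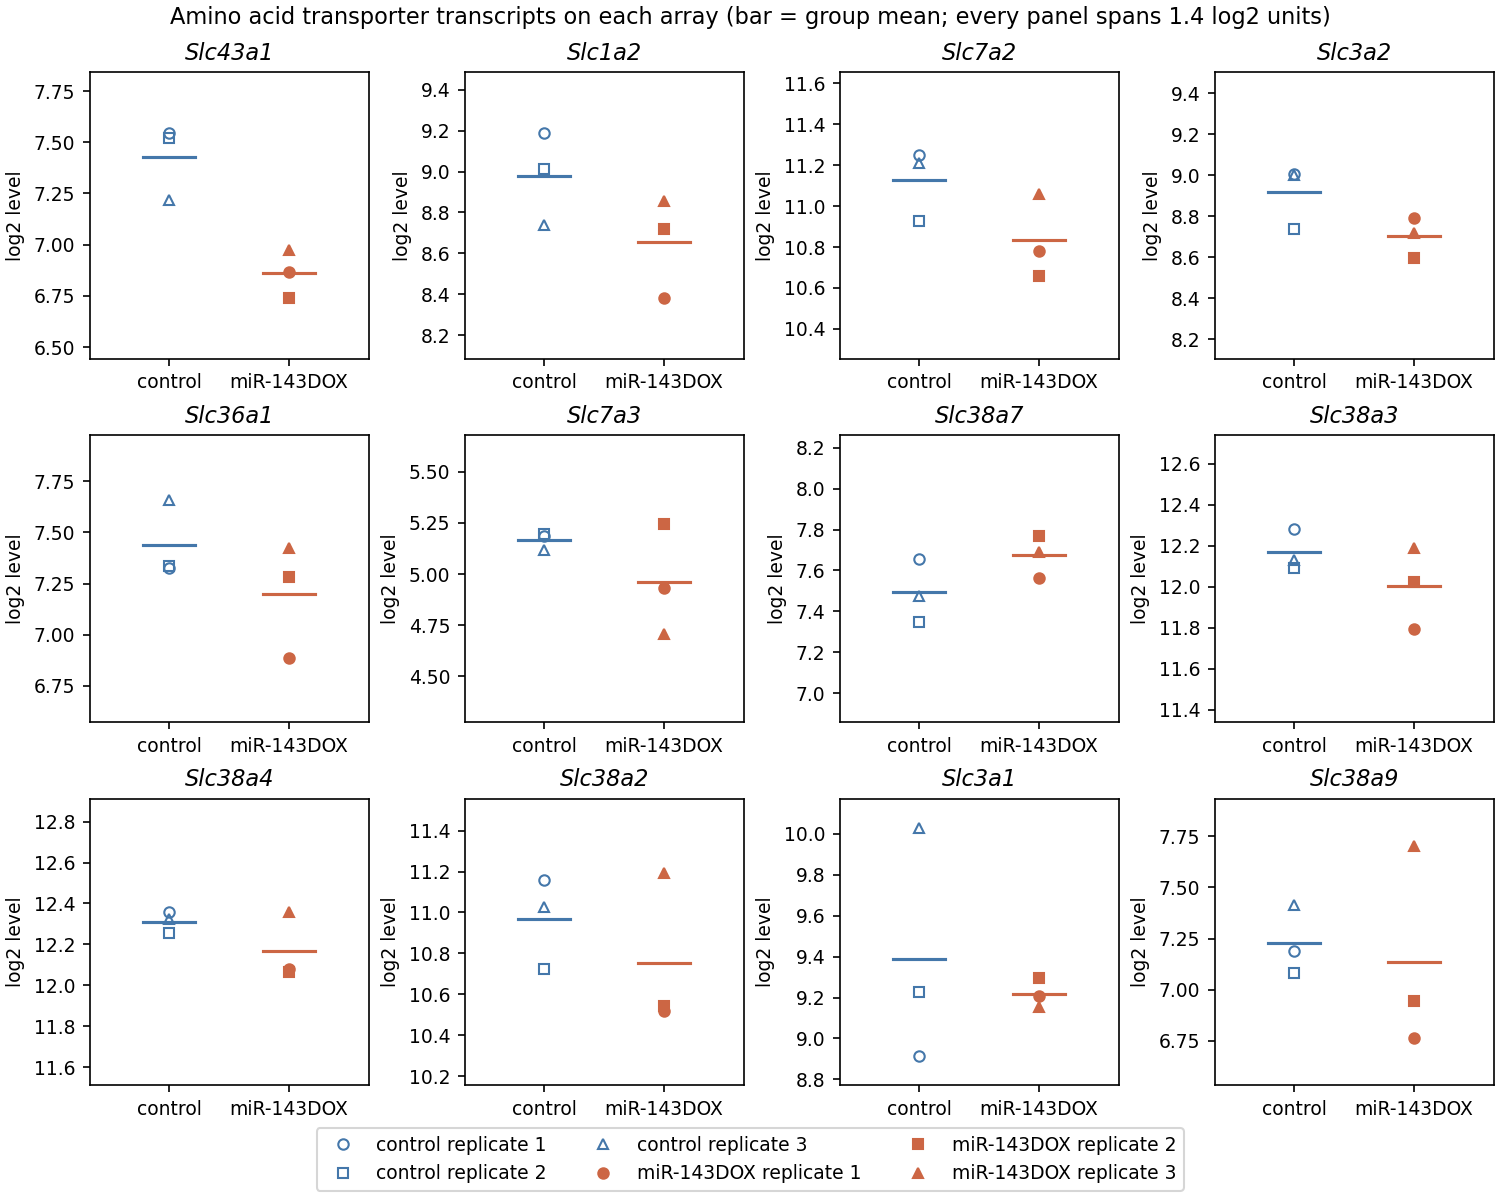
Log2 level (y axis) of 12 transporter genes on each array, for control (blue, open) and miR-143DOX (orange, filled), with the symbol shape giving the replicate number and bars the group means. Slc43a1 is the gene of this set whose groups do not overlap. Replicate 3 of miR-143DOX is the highest miR-143DOX array for Slc38a2, Slc38a3, Slc38a4, Slc38a9, Slc7a2, Slc43a1, Slc1a2 and Slc36a1. Control replicate 3 is the highest array for Slc3a1 and Slc36a1.

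The Slc7 family has 15 genes on the array, of which 11 were tested, with 7 above 0 and 4 below (median 0.04). Slc7a2, the low-affinity cationic amino acid carrier CAT-2 through which hepatocytes take up arginine, ornithine and lysine, was the member of the family with the brightest signal. It measured 11.25, 10.92 and 11.21 in control and 10.78, 10.66 and 11.06 in miR-143DOX (log2 level). The highest miR-143DOX array, replicate 3, exceeded the lowest control, replicate 2, so the groups overlapped. The difference was -0.30 (95% interval -0.63 to 0.04, limma unadjusted p = 0.0788). All 21 of its probe sets were tested and all 21 lay below 0, from -0.44 to -0.01, with 0 at an unadjusted p under 0.05. Probe set 10571447 varied more between control arrays than between groups, at 9.91, 8.98 and 11.01 in control and 9.45, 9.17 and 10.08 in miR-143DOX. The gene's difference had an unadjusted p under 0.05 with control replicate 2 left out (-0.40) or miR-143DOX replicate 3 left out (-0.41).

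Slc7a1 (CAT-1), the high-affinity carrier of the same substrates that most tissues other than liver rely on, measured 5.99, 6.09 and 6.02 in control and 6.25, 6.37 and 5.75 in miR-143DOX (log2 level). Its difference was 0.09 (-0.27 to 0.46), 0.53 with its brightest probe set and -0.03 without miR-143DOX replicate 2. Slc7a5 (LAT1), the large neutral amino acid exchanger of growing cells, measured 6.43, 6.43 and 6.54 in control and 6.46, 6.68 and 6.39 in miR-143DOX, a difference of 0.04 (-0.26 to 0.34). Both genes overlapped between the groups. Slc7a8 (LAT2) differed by 0.11 (-0.17 to 0.39), at 5.19, 5.19 and 5.12 in control and 5.30, 5.37 and 5.18 in miR-143DOX. Slc7a7 (y+LAT1) differed by 0.02 (-0.28 to 0.33), at 5.44, 5.61 and 5.62 in control and 5.70, 5.40 and 5.64 in miR-143DOX.

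Slc7a3 (CAT-3), a cationic carrier of brain, had a mean at the floor for testing, at 5.19, 5.20 and 5.12 in control and 4.93, 5.25 and 4.71 in miR-143DOX, a difference of -0.20 (-0.54 to 0.13). The remaining tested Slc7 symbols, Slc7a4, Slc7a6os, Slc7a9, Slc7a10 and Slc7a14, lay between -0.11 and 0.05. The means of Slc7a3, Slc7a8 and Slc7a9 were near the floor of log2 5.06, but they average unlike probe sets. Probe set means ran from 3.32 to 9.32 in Slc7a3, from 3.22 to 7.88 in Slc7a8 and from 2.75 to 7.35 in Slc7a9.

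The heavy chains of the Slc3 family, Slc3a2 and Slc3a1, had overlapping groups. Slc3a2, which encodes the 4F2 heavy chain (CD98) that brings the LAT and y+LAT light chains to the surface, measured 9.01, 8.74 and 9.002 in control and 8.79, 8.60 and 8.72 in miR-143DOX (log2 level). Control replicates 1 and 3 were above every miR-143DOX array, and control replicate 2 was not. The difference was -0.21 (95% interval -0.51 to 0.09), with 9 of 9 tested probe sets below 0. With the median over its probe sets it was -0.36 (limma unadjusted p = 0.0397), and with the brightest probe set -0.04. Its partners Slc7a5, Slc7a7 and Slc7a8 lay at 0.04, 0.02 and 0.11.

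Slc3a1, the heavy chain rBAT of the cystine and dibasic amino acid carrier, measured 8.91, 9.23 and 10.03 in control and 9.21, 9.30 and 9.15 in miR-143DOX (log2 level). Control replicate 3 was the highest array in 9 of its 9 probe sets, and control replicate 1 was the lowest for the gene. Its spread was 0.58 in control against 0.07 in miR-143DOX (SD, n = 3 each). The difference was -0.17 (-0.68 to 0.33). It turned to 0.15 without control replicate 3 and was -0.41 without control replicate 1, so no direction can be given. Its light chain partner Slc7a9 differed by -0.09 (-0.41 to 0.23).

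In the Slc1 family, with 7 genes of which 6 were tested, 3 lay above 0 and 3 below. Slc1a2 (GLT-1), a glutamate carrier that in liver marks the pericentral hepatocytes that make glutamine, measured 9.19, 9.01 and 8.74 in control and 8.38, 8.72 and 8.86 in miR-143DOX (log2 level). The groups overlapped through control replicate 3 and miR-143DOX replicate 3. The difference was -0.33 (95% interval -0.69 to 0.04, limma unadjusted p = 0.0745), with 14 of 16 tested probe sets below 0 and 2 of them lower at an unadjusted p under 0.05. Probe set 10474155 measured 11.30, 11.31 and 11.17 in control against 10.42, 11.00 and 10.42 in miR-143DOX. The gene passed that criterion when control replicate 3 (-0.45) or miR-143DOX replicate 3 (-0.43) was left out, and with array weights (-0.37).

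Of 10 other pericentral markers, 2 were lower and 0 higher by the same criterion (1.68% and 1.38% of all genes), 4 lay above 0 and 6 below, and their median was -0.028. Cyp1a2, a pericentral cytochrome P450, differed by -0.49 and Lect2 by -0.41, while Glul, the glutamine synthetase that shares the innermost pericentral cells with Slc1a2, differed by 0.0046 (-0.29 to 0.30). The mean log2 level of the 10 markers ran from 9.50 to 9.67 in control and from 9.33 to 9.53 in miR-143DOX. Their part in the Slc1a2 value was not tested.

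Slc1a4 (ASCT1) and Slc1a5 (ASCT2) exchange small neutral amino acids and had low mean levels here. Slc1a4 measured 5.48, 5.62 and 5.47 in control and 5.56, 6.03 and 5.52 in miR-143DOX (log2 level), with the highest value in miR-143DOX replicate 2 and a difference of 0.18 (-0.17 to 0.52). With the median over its probe sets it was -0.23. Slc1a5 measured 5.51, 5.66 and 5.78 in control and 5.42, 5.70 and 5.51 in miR-143DOX, a difference of -0.11 (-0.41 to 0.20). Slc1a3, Slc1a6 and Slc1a7, glutamate carriers of glia, cerebellum and retina, lay between -0.03 and 0.14.

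All 4 Slc36 genes were tested, 2 above 0 and 2 below. Slc36a1 (PAT1), the proton-coupled carrier that exports small amino acids from lysosomes, measured 7.32, 7.34 and 7.66 in control and 6.89, 7.28 and 7.43 in miR-143DOX (log2 level). Its highest miR-143DOX array passed the lower pair of controls, and the difference was -0.24 (95% interval -0.61 to 0.12), with 10 of 13 probe sets below 0. It was -0.09 without miR-143DOX replicate 1. Slc36a4 (PAT4) measured 6.70, 6.61 and 6.64 in control and 6.57, 6.29 and 6.99 in miR-143DOX, a difference of -0.03 (-0.41 to 0.34), with arrays of miR-143DOX on both sides of the controls. Slc36a2 and Slc36a3 lay at 0.05 and 0.06.

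The 7 members under the floor were Slc1a1, Slc7a6, Slc7a12, Slc7a13, Slc7a15, Slc38a1 and Slc38a11. Slc7a15 was the one among them whose groups did not overlap, at 4.49, 4.66 and 4.62 in control and 4.80, 5.0025 and 4.83 in miR-143DOX (log2 level), a difference of 0.29. Of the genes tested, 7.13% had groups apart in either direction, and the share among genes under the floor was not counted. Slc7a15 was not tested in the main comparison. With no filter on dim genes its unadjusted p was 0.0462 (limma), a setting in which 3.24% of all genes had an unadjusted p under 0.05. In Slc38a1, a glutamine carrier, probe set 10431882 was higher in every miR-143DOX array, at 5.52, 5.52 and 5.26 in control and 6.23, 6.02 and 6.04 in miR-143DOX, and the gene's mean differed by 0.22. Read by the median over its probe sets, Slc38a1 differed by 0.65 (limma unadjusted p = 0.00406, adjusted p = 1 after rounding).

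Across the members the sign of the difference went with the brightness of the signal, a split made after the values were seen and given without a test. Brightness depends on the probes as well as on the transcript, so the ranges below order signals and not amounts of RNA. Of 11 members above the 75th percentile of all genes (log2 7.51 and above), 10 lay below 0, with a median of -0.16, where 53.2% of 5104 genes in that range lay below 0 with a median of -0.012. Slc38a7 was the exception, and the 10 below 0 included Slc7a6os (-0.11) and Slc43a3 (-0.06), which do not carry amino acids. Of 6 members between the 50th and the 75th percentile, 5 lay below 0 with a median of -0.13, against 51.2% of genes and a median of -0.0047. Of 18 members between the 25th and the 50th percentile, 4 lay below 0 with a median of 0.05, against 38.4% of genes and a median of 0.04. Whether members and other genes of that range differed was not tested.

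The mean level of the 11 bright members was 9.69, 9.49 and 9.66 in control and 9.39, 9.41 and 9.59 in miR-143DOX (log2). Replicate 3 of miR-143DOX lay above control replicate 2, so the groups overlapped. Over all 5104 genes of that range the arrays stood at 8.84, 8.80 and 8.78 in control and 8.80, 8.75 and 8.82 in miR-143DOX. With each array left out, 9 to 10 of the 11 lay below 0, with medians from -0.25 to -0.10. When each gene was read by its brightest probe set, 6 of 11 lay below 0, with a median of -0.035 beside 0.034 for all genes of the range.

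**Figure D4:**
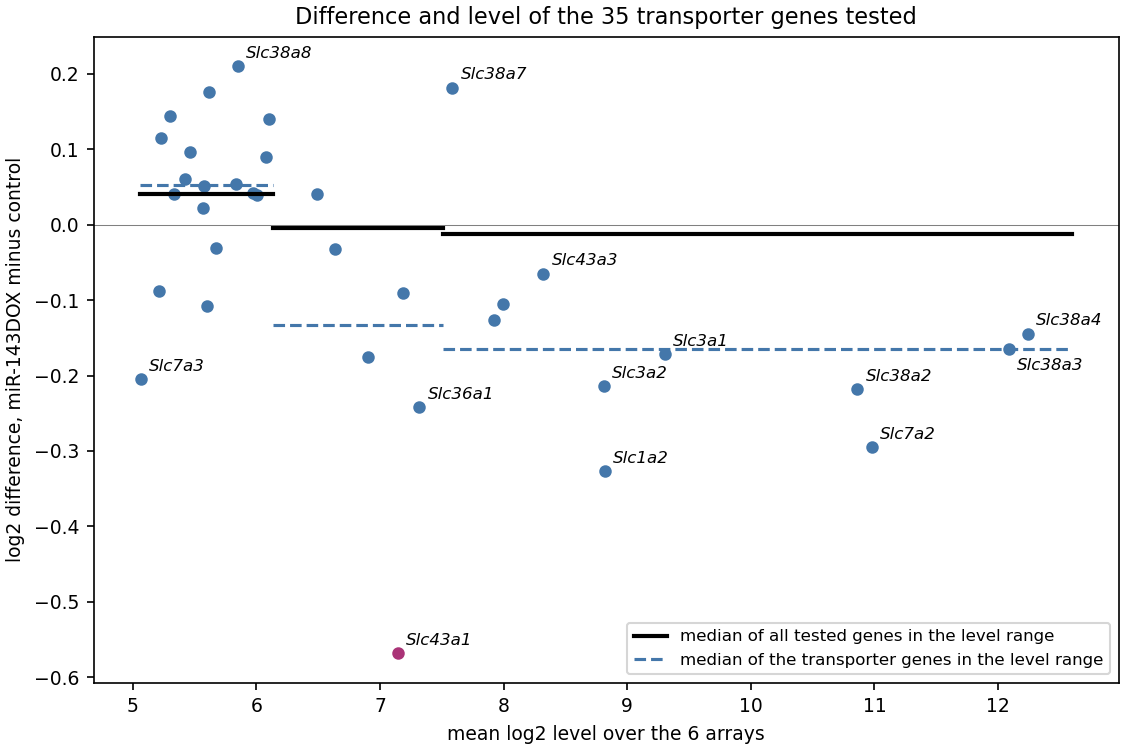
Mean log2 level over the 6 arrays (x axis) and log2 difference (y axis, miR-143DOX minus control) of the 35 transporter genes tested, with Slc43a1 in purple. Solid black lines are medians of all tested genes and dashed blue lines medians of the transporter genes in 3 ranges of level. In the brightest range the median is -0.16 for the transporter genes, which there include Slc7a6os and Slc43a3, and -0.012 for all genes.

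At the level of probe sets, 413 of the members' 547 were bright enough to be tested, and 0 passed 5% FDR (0% of all 159072 did). At an unadjusted p under 0.05, 17 were lower and 5 higher in miR-143DOX, which is 4.12% and 1.21% against 2.15% and 2.02% of all probe sets. Slc43a1 held 8 of the 17. Outside it, 9 of 397 were lower, or 2.27%, near the share of all probe sets. The median difference of the members' probe sets was -0.09, and 0.0056 over all. Probe sets of a gene share its transcript and are not replicates.

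Single arrays moved the members in ways that the groups did not. Replicate 2 of miR-143DOX was the highest array for 17 of the 35 tested members, among them the dim Slc1a4, Slc7a5 and Slc7a8, and the lowest for 7. Replicates 1 and 3 of miR-143DOX were each the lowest for 9. Without miR-143DOX replicate 3, the members at an unadjusted p under 0.05 numbered 6, namely Slc43a1, Slc38a2, Slc7a2, Slc38a8, Slc1a2 and Slc38a9, while the share of all genes went from 3.06% to 7.36%. Slc38a8 was the one of these that lay higher, at 0.42 against 0.21 with all arrays. With any other array left out the members called numbered 1 or 2, and Slc43a1 was always among them.

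Carriers outside these families that move amino acids were given by a separate list. Of 26 tested, an unadjusted p under 0.05 was reached by 1 on the higher side and 1 on the lower (1.38% and 1.68% of all genes), with 0 to 1 in all when each array was left out, and the median was -0.016. Slc17a8, a vesicular glutamate carrier, measured 8.11, 8.04 and 8.44 in control and 8.43, 8.70 and 8.64 in miR-143DOX, a difference of 0.39 (standard error 0.15). Slc15a4, a lysosomal carrier of histidine and short peptides, differed by -0.43 (0.19), and the aromatic amino acid carrier Slc16a10, also known as TAT1, by -0.29 (0.16). Slc6a18, a neutral amino acid carrier of kidney, differed by 0.22 (0.13).

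Genes that respond to amino acid shortage through ATF4, the factor that several of these carriers depend on for induction, lay on both sides of 0. Of 27 tested, 16 lay above 0 and 11 below (median 0.037), and 1 reached an unadjusted p under 0.05, beside 3.06% of all genes. That gene was the stress factor Atf3, at 0.55 (standard error 0.22). The list held 0 such genes when either control replicate 3 or miR-143DOX replicate 1 was left out. Groups did not overlap for 4 genes of the list, all higher (3.4% of all genes), namely Atf3, Nupr1, Cebpg and Aldh1l2, and for 0 lower (3.73%). Differences of Ddit3, Nupr1 and Cebpg, all transcriptional regulators of the same response, were -0.33, 0.26 and 0.25. Asns, asparagine synthetase, is named here after its values were seen, because its miR-143DOX arrays stood around the controls as those of Slc38a2 did, at 7.89, 7.58 and 6.99 in control and 6.41, 6.12 and 8.13 in miR-143DOX (log2 level). Its difference was -0.60 (95% interval -1.51 to 0.30), and in both genes miR-143DOX replicates 1 and 2 were the lowest arrays and replicate 3 the highest. Atf5 had the opposite order, with miR-143DOX replicate 3 the lowest array (8.54) and replicates 1 and 2 the highest (9.17 and 9.02). In Ddit4 (6.45) and Gpt2 (10.04) miR-143DOX replicate 3 was also the lowest array and replicate 1 the highest. Replicate 2 of miR-143DOX was not above every control in these genes (7.07 in Ddit4 and 10.39 in Gpt2). Whether Asns and Slc38a2 vary together was not tested.

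Genes that sense amino acids for mTORC1 held 0 of 30 at an unadjusted p under 0.05 (0 to 2 with each array left out), with 15 above 0 and 15 below. Of all genes tested, 3.06% passed that threshold, 1.38% higher and 1.68% lower. Differences were 0.29 for Sesn3, -0.27 for Tbc1d7, 0.28 for Fnip1 and 0.12 for Rragc. Among 44 enzymes of amino acid metabolism it was passed by 1 gene in each direction, beside those same shares of all genes. The count was 0 in all when control replicate 2 or miR-143DOX replicate 2 was left out, and the median was 0.0084. Cbs, the enzyme that commits homocysteine to cysteine, measured 10.36, 10.37 and 10.35 in control and 10.71, 10.79 and 10.58 in miR-143DOX, a difference of 0.34 (standard error 0.13). Groups did not overlap for 1 enzyme that was higher, Cbs, and 3 that were lower, Gpt, Acmsd and Bcat2, beside 7.13% of all genes in either direction. Sds, serine dehydratase, differed by -0.34 (0.15), Gpt, alanine aminotransferase, by -0.27 (0.14), and Acmsd of the tryptophan pathway by -0.24 (0.13). No gene of these 4 lists passed 5% FDR in limma.

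Markers of other liver cells gave no call at 5% FDR either. Sinusoidal endothelium markers lay below 0 in 9 of 10, with a median of -0.11, where 52.4% of all genes tested lay above 0. Their mean log2 level ran from 7.65 to 7.77 in control and from 7.35 to 7.81 in miR-143DOX. Kupffer cell markers ran from 7.12 to 7.20 in control and 7.03 to 7.37 in miR-143DOX, and those of stellate cells and fibroblasts from 6.76 to 6.83 in control and 6.75 to 7.03 in miR-143DOX. By unadjusted p under 0.05, the markers called in these lists were lower (1.68% of all genes) and 0 were higher (1.38%). They were Clec4g of sinusoidal endothelium (-0.37, 1 of 10 tested) and Spp1 of cholangiocytes (-0.32, 1 of 5). Serpina1a of hepatocytes (-0.98, 1 of 10) and Sds of the periportal list (-0.34, 1 of 9) were the others. Hepatocyte markers ran from 12.57 to 13.05 in control and 12.51 to 12.81 in miR-143DOX, and periportal markers, with a median of 0.015, from 11.22 to 11.37 in control and 11.20 to 11.38 in miR-143DOX. Cholangiocyte and lymphocyte markers, 5 tested of each, had medians of 0.011 and 0.06. In bulk RNA, fewer cells of a type and less RNA per cell cannot be told apart, and the part of these markers in the members' values was not tested.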

How the data were processed

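Transcripts of hepatocytes from 3 miR-143DOX and 3 control mice were measured, 1 array each. The authors deposited 1 table of log values, read here as log2 from their range (1.60 to 15.2). The software was Partek, per the submitters' processing notes, with no version given; background correction, normalization and summarization are not given in the sources used here. Of 234873 probe sets, the 212097 with 1 gene symbol in the platform's annotation were used (1 probe set that named a member with another gene was not). Values were quantile normalized, and a gene's value is the mean of its probe sets. The lowest 25% of genes by the mean over the 6 arrays (under log2 5.06) were not tested; no detection call was used. Group was the only term of a two-sided limma test (version 3.58.1, R 4.3.3; lmFit, then eBayes), with Benjamini-Hochberg adjustment over all 15312 genes, and likewise over 159072 probe sets (floor log2 5.16). Intervals are 95% intervals of the fit. Precision is limited by the number of arrays. The steps were tested on simulated data.

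The members and lists were chosen with earlier results of these data known; motifs, the split by brightness and the count without Slc7a6os and Slc43a3 were chosen after seeing the data. Values on every array were given for the 8 tested members with the smallest p and a set list; members whose groups do not overlap were named; other lists gave up to 4 genes by smallest p. Other exceptions are named as such in the text. Probe sets were named by smallest p or as the gene's brightest, or for a difference that stood out from the gene's others after values were seen. List symbols numbered 203 under the written symbol, 9 under another and 7 not used. Alternatives were the deposited values, median centring, no filter or the lowest 40% left out, the median or brightest probe set, an intensity trend with robust prior, array weights, a replicate block and each array left out.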

Additional observations from a re-analysis of the deposited data

How the results depend on the processing

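The direction and the unadjusted call of Slc43a1 held in all 15 other settings, with differences from -0.72 (median over probe sets) to -0.51 (without miR-143DOX replicate 2). No gene and no probe set passed 5% FDR in any setting run. Members at an unadjusted p under 0.05 numbered 2 of 42 when dim genes were kept (3.24% of all genes passed), 3 of 35 for the median over probe sets (3.66%), 3 of 38 for the brightest probe set (2.97%), 2 of 35 with array weights (6.67%), 2 of 35 with the replicate block (4.79%), and 1 to 6 with each array left out (1.95% to 7.36%). The median difference of the tested members was -0.11 with the lowest 40% left out and -0.10 with the median over probe sets, but 0.019 with the brightest probe set (0.043 over all genes) and -0.0044 with dim genes kept; with each array left out it ran from -0.087 to -0.012. Without Slc7a6os and Slc43a3 it was -0.031 and the count stayed at 1. Same-numbered arrays of the groups deviated together at r of 0.107, 0.0468 and 0.296 across genes, and arrays with unlike numbers at -0.257 to 0.152. The main fit did not take the numbers to pair the animals, and these values do not decide whether they do. The replicate block added Slc7a2 (limma unadjusted p = 0.0438), and did not change the call of Slc43a1. Over all named members and settings, 286 values kept their call within 1 SD, 9 moved further and 9 passed the threshold that the main value missed. Of the counts for other gene lists, 43 moved by over 1.5 times and 65 did not. For dim members the mean joins probe sets near the floor with brighter ones, and 27 of the 35 differences lay within 0.2, each with an interval that included 0.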
